A study of Mus musculus with 6 samples.

Results

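The expression of 38 genes that act in mitosis was examined in cultured mouse granulosa cells, which line the ovarian follicle, nurse the oocyte and produce oestradiol and progesterone. The genes were taken from a list of mitotic kinases, cyclins, checkpoint proteins, kinesins, kinetochore proteins and spindle proteins, and all 38 were found by symbol among the 27151 gene IDs of the table. Cells had been collected by puncturing ovarian follicles in a milrinone-containing medium, grown in 10% serum for 24 h and deprived of serum for 12 h. They were then kept for 24 h either without addition (control, 3 libraries) or with GSK4112 (3 libraries), with fresh medium every 12 h. GSK4112 is a synthetic agonist of NR1D1 (REV-ERBα), a haem-binding receptor by which the circadian clock represses its target genes. Collection, serum deprivation and medium changes were shared by both groups. The sources used here do not give strain, age, any vehicle in the controls or the number of animals behind each library. No dose is printed, since the labels state it in a unit that is no concentration. The series' design text speaks of treatment in vivo, whereas the protocol describes cultured cells. Nothing says that the libraries came from separate cultures, so the spread behind each p-value is that between libraries and may be technical. In fits that take the replicate number as a block, it is the spread of the differences between same-numbered libraries.

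Entry into mitosis is driven by the kinase CDK1 bound to cyclin B, with Polo-like and Aurora kinases. The spindle checkpoint then holds the anaphase-promoting complex (APC/C), a ubiquitin ligase, until kinetochores are attached, after which CDC20 activates it, cyclin B is destroyed and the cell divides. The mRNAs of these proteins are scarce in resting cells and accumulate in G2 and M phase, through CHR promoter elements read by DREAM, B-MYB and FOXM1 complexes and through CCAAT boxes bound by NF-Y. Granulosa cells divide in growing follicles and leave the cell cycle when they luteinise, and withdrawal of serum is a standard means of arresting cultured cells.

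Values are FPKM (fragments scaled to exon length and library size). The lengths that gave whole fragments count all annotated exons of a gene, such as 4.934 kb for Cdk1 and 1.531 kb for Ccnb2. Ranks of genes by level are ranks of FPKM and depend on these lengths. In control replicate 1, Cdk1 had 1567 fragments and Ccnb2 926. Per-fragment steps in the values implied 16559239 to 18158275 fragments per library. The libraries with replicate number 1 stood apart from the rest in both groups: on the leading principal component (49.4% of the variance over the 12181 genes tested, those averaging 1 FPKM or more), the scores were -38.59 for control replicate 1, 1.05 and 2.29 for control replicates 2 and 3, -13.38 for GSK4112 replicate 1, and 26.56 and 22.07 for GSK4112 replicates 2 and 3. Scores were thus lowest in replicate 1 of each group and higher with GSK4112 in each replicate number. The granulosa markers Inha (1370 to 2245 FPKM), Amhr2 (43.3 to 68.2) and Foxl2 (29.9 to 64.4) were present in every library, while Cyp19a1, the aromatase gene, was at 0.0131 to 0.165 and Amh at 0.253 to 0.66. In bulk RNA, fewer dividing cells and less RNA per dividing cell cannot be told apart.

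Every one of the 38 mitosis genes was highest in control replicate 1, second in GSK4112 replicate 1 and lower in the 4 other libraries. Summed over the genes, FPKM was 466 in control replicate 1, against 116 in control replicate 2 and 130 in control replicate 3. With GSK4112 the sums were 359, 77.1 and 70.8 in replicates 1, 2 and 3. The replicate 1 libraries thus held 3.80 times (control) and 4.85 times (GSK4112) the mean sum of the other libraries of their group. This order of the libraries was known when the genes were chosen and is given as a description, without a test.

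**Figure D1:**
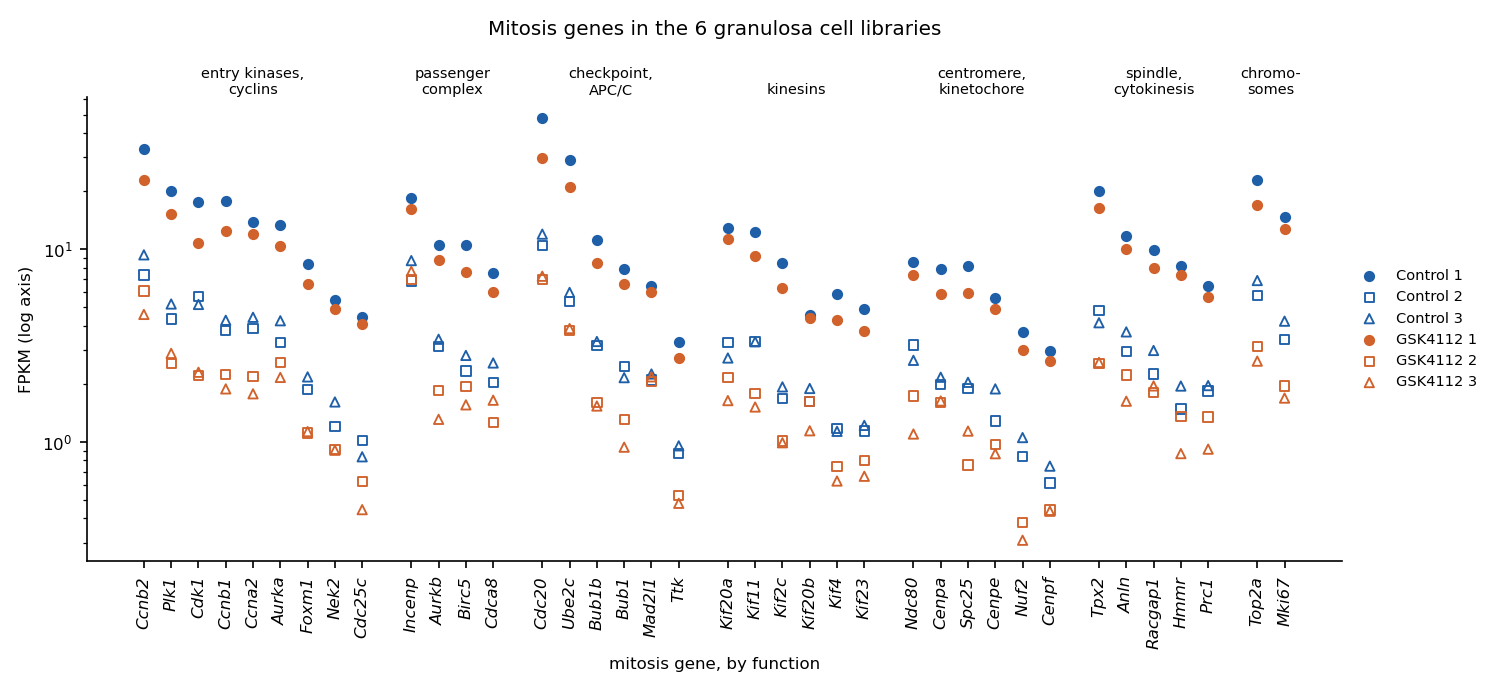
FPKM (log axis) of each mitosis gene in the 3 control (blue) and 3 GSK4112 (orange) libraries, with genes grouped by function and ordered by mean level. Filled circles are the replicate 1 libraries, which lie above all open symbols for every gene, and orange symbols lie below the blue symbols of the same shape for all genes but Incenp in replicate 2.

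Among single genes the excess of replicate 1 over the mean of replicates 2 and 3 ran from 2.38-fold (Incenp) to 5.09-fold (Ube2c) in control, with a median of 3.84. In GSK4112 it ran from 2.21-fold (Incenp) to 8.66-fold (Nuf2), with a median of 5.47. All 38 genes were at least 2-fold above both other libraries in both groups, a pattern seen in 2.41% of the 12181 genes, and replicate 1 was highest in both groups in 28.0% of them. The 2-fold pattern was also seen in 13 of 22 other kinesin, spindle and cytokinesis genes tested and 9 of 13 other checkpoint and cohesion genes. It was seen in 6 of 13 other entry regulators, 8 of 22 other kinetochore genes, 4 of 10 condensin and chromatin genes and 12 of 31 DNA replication genes. For the APC/C core it was 1 of 17, for DREAM, MuvB, E2F and NF-Y genes 0 of 20 and for G1 genes 2 of 12. Replicate 1 was nonetheless highest in both groups in 11 of those 20 DREAM, MuvB, E2F and NF-Y genes. Mybl2, the B-MYB gene, had the largest ratios of that list, 2.2 in control and 2.5 in GSK4112. The list medians were 1.09 and 1.05. Foxm1, which is counted among the 38, was at 4.13 and 5.91. The median ratio over all genes tested was 1.02 in control and 1.01 in GSK4112. For 34 of the 38 the excess was larger in GSK4112 than in control, the exceptions being Incenp, Mad2l1, Cdc20 and Cenpa.

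**Figure D2:**
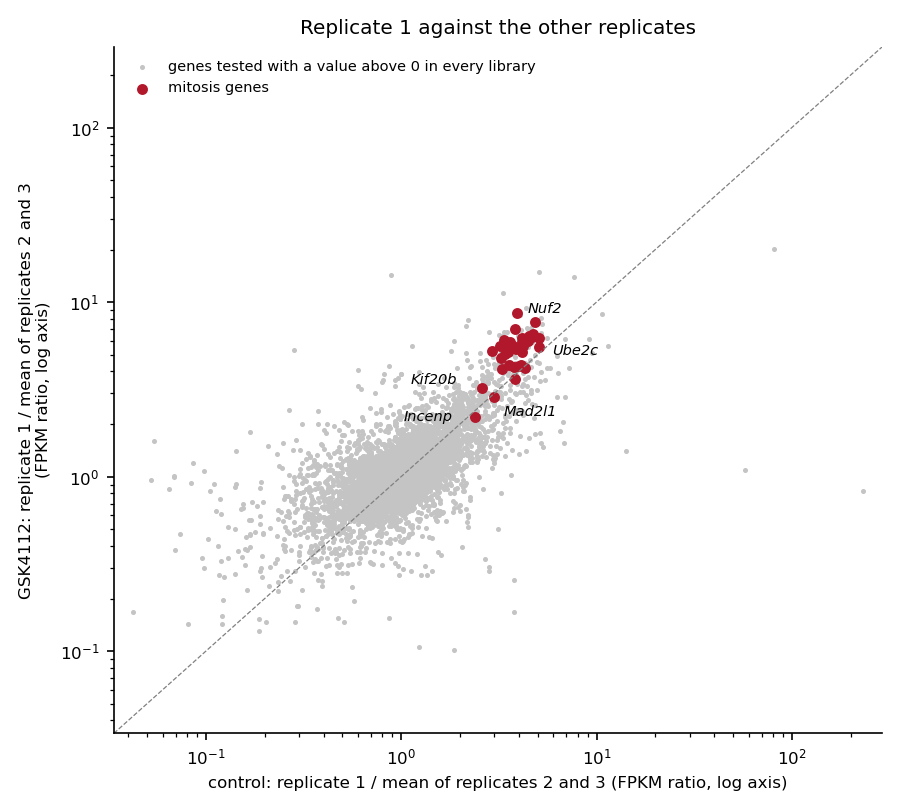
FPKM of replicate 1 divided by the mean of replicates 2 and 3, in control (horizontal) and GSK4112 (vertical), both on log axes. Grey points are the 12077 genes tested with a value above 0 in every library, red points the 38 mitosis genes, and the dashed line marks equal ratios. The mitosis genes lie between 2.38 and 5.09 on the control axis, with Incenp lowest.

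The question of the study was what the NR1D1 agonist does to granulosa cells. Within each replicate number, nearly all mitosis genes were lower with GSK4112, and 10 of them passed the test when the replicate number was included as a block: Cdk1, Ccnb1, Plk1, Bub1b, Cdc20, Ube2c, Kif11, Spc25, Tpx2 and Top2a. GSK4112 lay below control in all 38 genes in replicate 1, in 37 in replicate 2 and in all 38 in replicate 3. The median gene was at 80.6%, 62.7% and 51.6% of control in replicates 1, 2 and 3, while the medians over all genes tested were 103.5%, 105.2% and 103.2%. Thus 37 of 38 were lower in all 3 replicate numbers, against 18.6% of all genes tested. No label states that libraries of the same replicate number belong together. In 29 of the 38 the reduction was smallest in replicate 1; whether it differed between replicate numbers was not tested.

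**Figure D3:**
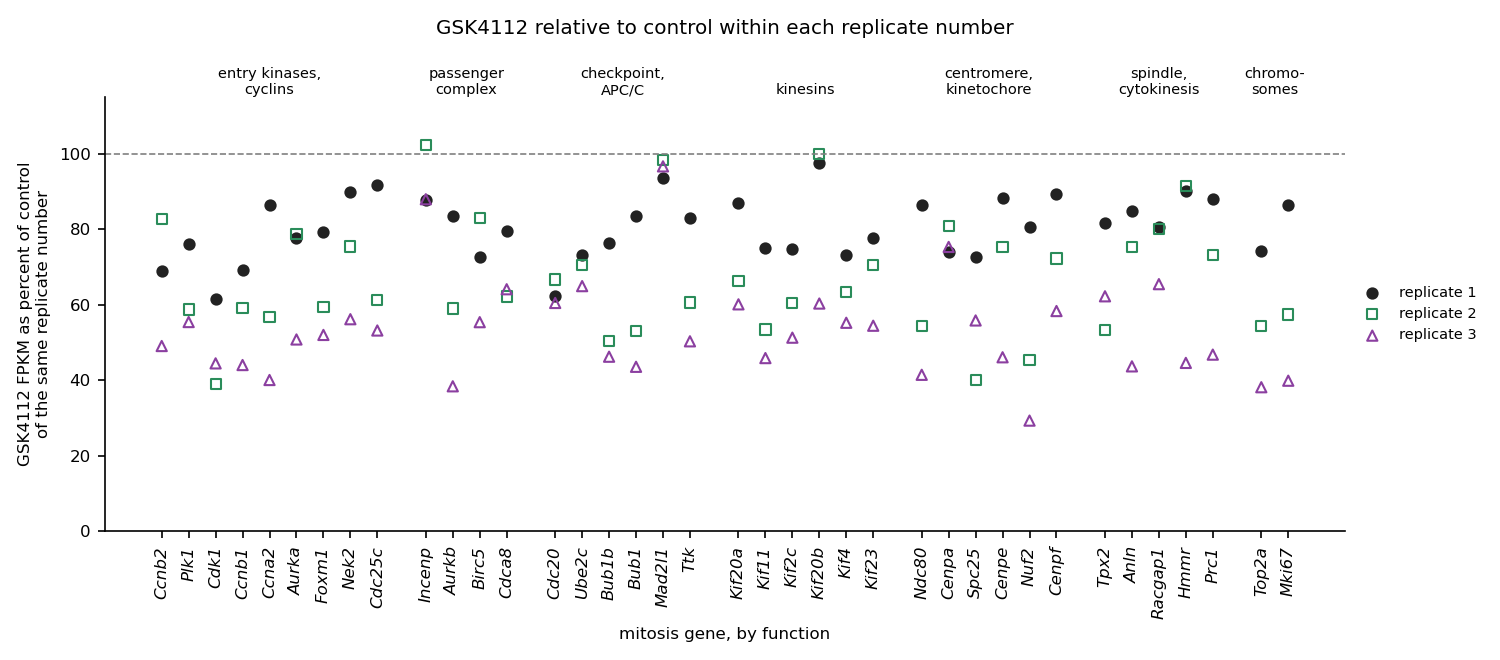
FPKM with GSK4112 as a percentage of the control library of the same replicate number (vertical, from 0), for replicate 1 (filled circles), 2 (squares) and 3 (triangles), with genes grouped by function. The dashed line marks 100%. The single point above it is Incenp in replicate 2 (102.3%), and the lowest is Nuf2 in replicate 3 (29.3%).

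Without the block the groups overlapped for every member, because GSK4112 replicate 1 exceeded control replicates 2 and 3. None of the 38 was called in limma (adjusted p 0.524 to 0.973, and 0 at an unadjusted p under 0.05), where 0.624% of all genes tested were called lower. The groups did not overlap, with GSK4112 lower, in 0 members and in 7.90% of all genes. The log2 change of FPKM + 1 was below 0 in all 38, from -0.87 (Cdk1) to -0.04 (Mad2l1), with a median of -0.44 against 0.05 over all genes, and its standard error was 0.416 to 0.80. With the replicate block the same changes had standard errors of 0.0826 to 0.154. Then 10 of 38 (26.3%) were called lower and 0 higher, 29 had an unadjusted p under 0.05, and 3.82% of all genes tested were called lower. Without both replicate 1 libraries (2 against 2, no block) 11 were called lower, 8 of them among the 10 (3.80% of all genes), and the GSK4112 values lay below both control values in 36 members, against 21.2% of all genes. In limma-voom on recovered fragments with the block 15 were lower, all 10 among them (5.93% of all genes). With the block but without both replicate 3 libraries no member was called, and neither was any other gene (21 members and 2851 genes at an unadjusted p under 0.05). With the block but without both replicate 2 libraries 5 members were called lower, where 378 of all 12181 genes tested were. The unblocked median was 0.10 without control replicate 1, -0.72 and -0.66 without control replicates 2 and 3, -1.06 without GSK4112 replicate 1, and -0.15 and -0.11 without GSK4112 replicates 2 and 3.

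**Figure D4:**
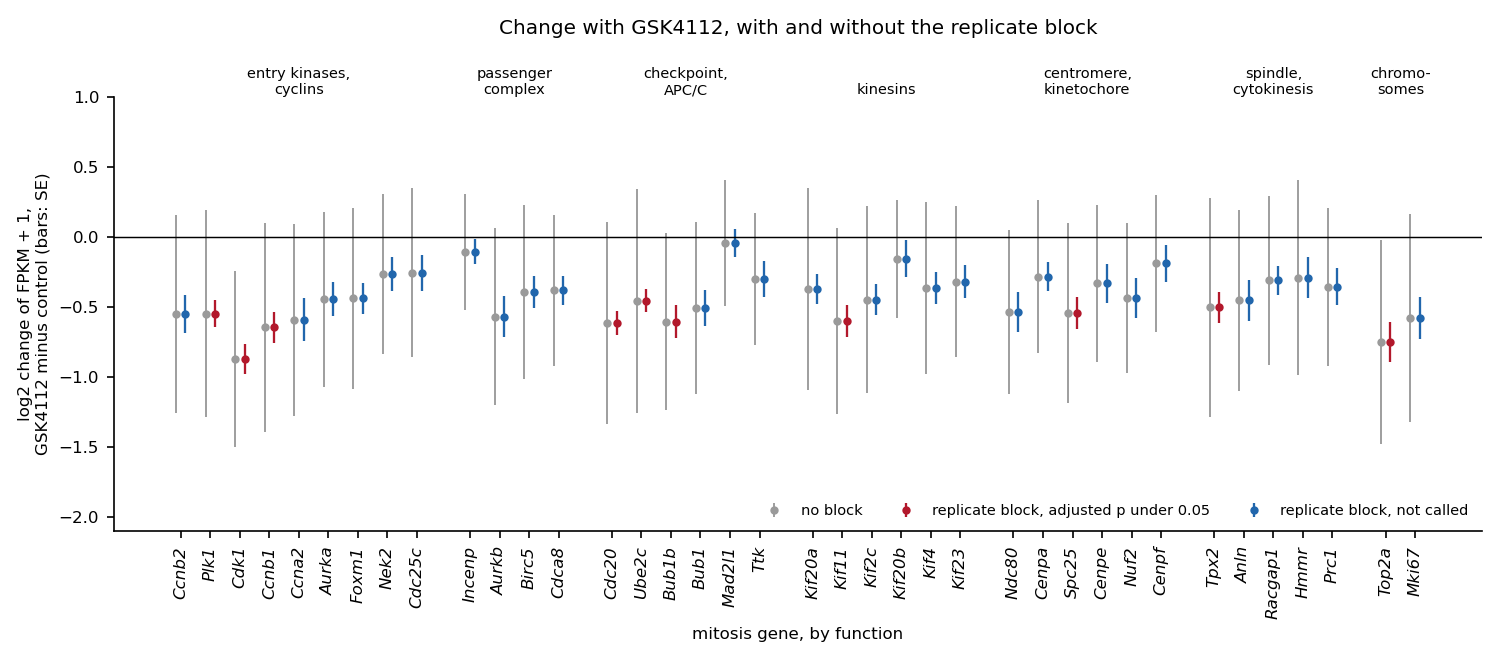
Log2 change of FPKM + 1, GSK4112 minus control, for each mitosis gene with bars of 1 standard error, from limma without a block (grey) and with the replicate number as a block (red where the adjusted p was under 0.05, blue otherwise). The estimates are equal in both fits, and the bars shrink from 0.416 to 0.80 down to 0.0826 to 0.154.

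Among the kinases and cyclins that drive entry into mitosis, 3 of 9 fell with the block (Cdk1, Ccnb1 and Plk1) and 6 did not pass. Cdk1 encodes the mitotic cyclin-dependent kinase (ENSMUSG00000019942; GRCm38 chromosome 10, 69335146 to 69352938, minus strand). It was at 17.5, 5.66 and 5.16 FPKM in control replicates 1, 2 and 3 and at 10.8, 2.20 and 2.30 with GSK4112. It had the largest fall of the 38, to 61.6%, 38.9% and 44.5% of control (log2 change -0.87 ± 0.109 SE, adjusted p = 0.0113 with the block and 0.524 without). Its partner cyclin gene Ccnb1 (chromosome 13, 100778650 to 100786570, minus strand) was at 17.9, 3.78 and 4.28 in control and at 12.4, 2.23 and 1.88 with GSK4112 (adjusted p = 0.0257 with the block). A Ccnb1 transcript is matched over its whole length by transcripts of other loci such as Ccnb1-ps (mean FPKM 0.232). The Ccnb1 value is therefore uncertain, since it is not given how shared fragments were counted. Ccnb2, the other B-type cyclin gene and the most abundant of this group, was at 33.3, 7.34 and 9.34 in control and 22.95, 6.07 and 4.58 with GSK4112 (adjusted p = 0.063 with the block).

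Plk1, the gene of Polo-like kinase 1 (chromosome 7, 122159439 to 122169873, plus strand), was at 20.01, 4.35 and 5.19 in control and 15.2, 2.55 and 2.88 with GSK4112 (adjusted p = 0.0306 with the block). The levels of Plk1 in GSK4112 replicates 2 and 3 were close to each other and below both matching controls. Ccna2 (cyclin A2), Aurka (Aurora A kinase) and Foxm1, which encodes a transcription factor of G2 and M genes, were lower in all 3 replicate numbers but not called with the block (adjusted p 0.0752, 0.084 and 0.0713). Nek2, a centrosomal kinase gene, and Cdc25c, the gene of a phosphatase that activates CDK1, had means of 2.50 and 1.91 FPKM and adjusted p of 0.244 and 0.275 with the block. The 9 genes summed to 134.2, 32.4 and 37.3 in control and to 99.3, 20.5 and 18.1 with GSK4112.

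Promoter sequence is shown for the 3 genes of lowest adjusted p with the block that have a RefSeq entry and for Mad2l1, the member with the smallest change. The sequences are the 250 bases before and 30 bases after the RefSeq gene start (GRCm38.p6, 5′ to 3′ on the gene's strand), with the CHR core TTTGAA (or TTCAAA) and the NF-Y box CCAAT (or ATTGG) in capitals:
Cdk1 (chr10:69352883-69353162, minus strand): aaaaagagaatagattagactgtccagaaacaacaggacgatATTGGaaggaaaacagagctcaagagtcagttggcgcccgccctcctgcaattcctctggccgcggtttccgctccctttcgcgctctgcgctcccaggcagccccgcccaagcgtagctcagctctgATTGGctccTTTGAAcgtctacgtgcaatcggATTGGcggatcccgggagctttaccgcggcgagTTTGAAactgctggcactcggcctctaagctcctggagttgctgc
Cdc20 (chr4:118437314-118437593, minus strand): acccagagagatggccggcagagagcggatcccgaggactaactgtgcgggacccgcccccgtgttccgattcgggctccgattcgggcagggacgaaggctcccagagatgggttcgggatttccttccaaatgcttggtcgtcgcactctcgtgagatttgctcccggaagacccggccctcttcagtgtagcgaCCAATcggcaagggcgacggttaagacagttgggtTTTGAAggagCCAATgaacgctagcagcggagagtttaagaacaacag
Ccnb1 (chr13:100786457-100786736, minus strand): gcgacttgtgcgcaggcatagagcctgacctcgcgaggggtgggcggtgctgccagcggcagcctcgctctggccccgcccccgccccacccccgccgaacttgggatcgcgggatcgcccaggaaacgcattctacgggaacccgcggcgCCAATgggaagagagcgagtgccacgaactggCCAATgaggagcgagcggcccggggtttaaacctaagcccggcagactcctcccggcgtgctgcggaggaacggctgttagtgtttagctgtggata
Mad2l1 (chr6:66534971-66535250, plus strand): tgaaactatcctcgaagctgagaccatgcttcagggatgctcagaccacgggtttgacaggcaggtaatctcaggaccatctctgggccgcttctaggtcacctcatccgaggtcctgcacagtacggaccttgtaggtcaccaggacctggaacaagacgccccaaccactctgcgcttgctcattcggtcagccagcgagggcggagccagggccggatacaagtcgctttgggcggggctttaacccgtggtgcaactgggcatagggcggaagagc

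In these windows Cdk1 held both motifs, Cdc20 likewise, Ccnb1 the CCAAT box but not TTTGAA, and Mad2l1 neither. Over the full RefSeq windows, from 250 bases before to 50 after the start, 31 of the 38 members were matched by symbol (not Tpx2, Ccna2, Incenp, Foxm1, Aurkb, Kif20a or Cdc25c). TTTGAA on either strand was present in 24 of 31 (77.4%), against 20.2% of 27025 genes in the promoter table and 13.6% of the 8781 genes tested that have an entry. CCAAT on either strand was also present in 24 (77.4%), against 41.1% and 43.2%. Both were present in 20 (64.5%), against 7.97% and 5.77%. Within 50 bases of the start, a window chosen after the positions were seen, TTTGAA was present in 22 (71.0%), against 5.72% and 3.62%. Birc5, Nuf2 and Mad2l1 had neither motif. The printed Mad2l1 window ends at 66535250, before the GENCODE start of that gene at 66535390. Members not called with the block also held both motifs, such as Cenpf, Hmmr and Ttk (limma adjusted p 0.420, 0.277 and 0.215). Whether the motifs went with the change was not tested. A match is a description of letters, not evidence of a bound site.

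**Figure D5:**
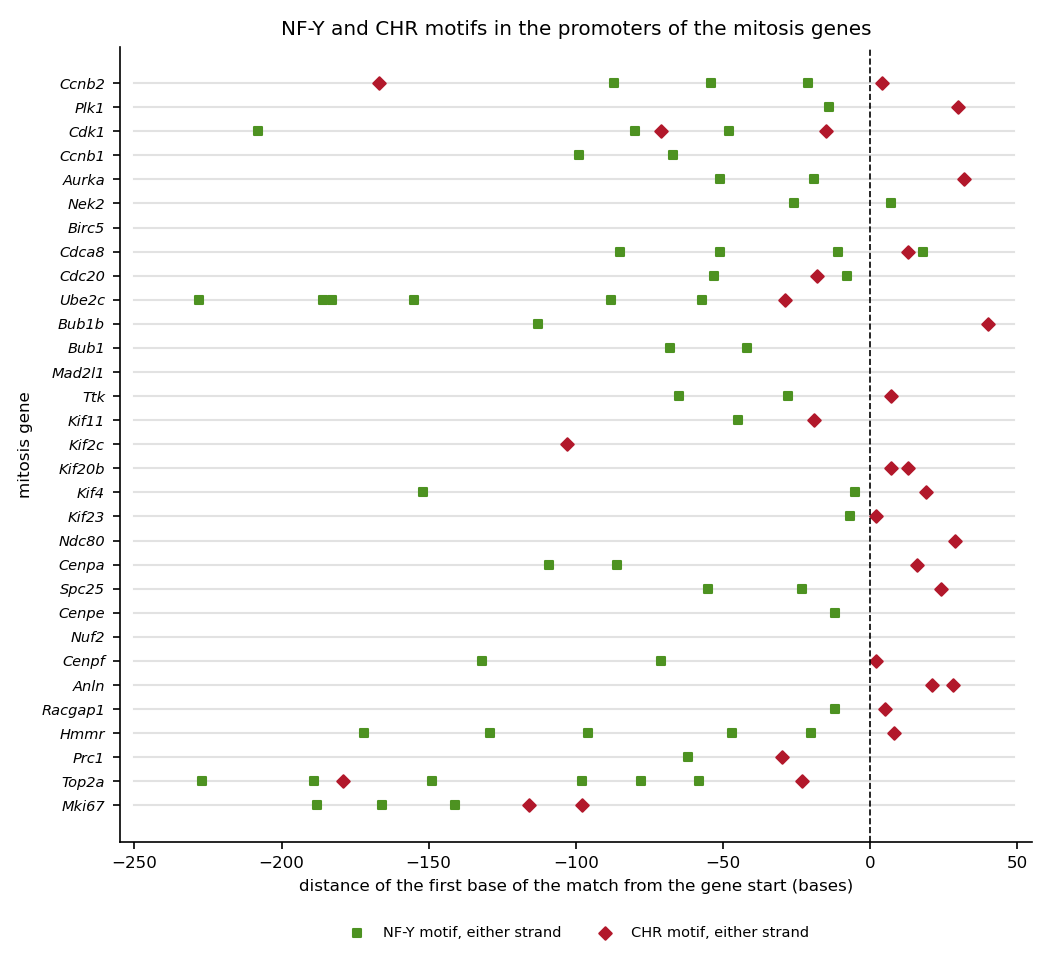
Positions of the NF-Y motif (green squares) and the CHR motif (red diamonds), on either strand, relative to the RefSeq gene start (dashed line) in bases, for the 31 mitosis genes with a promoter entry. For Prc1, which has a pair of entries, 1 is drawn. The CHR motif lies within 50 bases of the start in 22 genes.

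In the chromosomal passenger complex, which corrects wrong attachments of chromosomes to the spindle, none of the 4 genes was called with or without the block. Incenp, its scaffold, was the most abundant, at 18.5, 6.83 and 8.72 in control and 16.2, 6.98 and 7.67 with GSK4112. It was the only member that was not lower in every replicate number, and its excess in replicate 1 was the smallest of the 38 (log2 change -0.11 ± 0.0889 SE, adjusted p = 0.5 with the block). Aurkb, the kinase of the complex, was at 10.5, 3.13 and 3.41 and at 8.77, 1.84 and 1.31 (adjusted p = 0.0736 with the block). Birc5, which encodes survivin, was at 10.5, 2.33 and 2.81 and at 7.63, 1.93 and 1.56 (0.0983). Cdca8, the borealin gene, had an adjusted p of 0.083. Levels of Aurkb, Birc5 and Cdca8 were lower with GSK4112 in each replicate number, and the difference between Incenp and these 3 was not tested.

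Of the 6 genes of the spindle checkpoint and of APC/C activation, Cdc20, Ube2c and Bub1b fell with the block and 3 did not pass. Cdc20 (chromosome 4, 118432901 to 118437352, minus strand), the activator of the APC/C, was the most abundant of all 38, at 47.9, 10.4 and 11.97 in control. With GSK4112 it was at 29.9, 6.95 and 7.24. It was reduced to a similar part of control in each replicate number (62.4%, 66.7% and 60.5%), and its fall had the smallest standard error of the 38 (-0.61 ± 0.0826, adjusted p = 0.0147 with the block). A transcript of Gm7856 matches 95.5% of a Cdc20 transcript. Ube2c (chromosome 2, 164769898 to 164778822, plus strand), the ubiquitin-conjugating enzyme that works with the APC/C, was at 28.9, 5.37 and 5.96 and at 21.1, 3.79 and 3.87 (-0.45 ± 0.0837, adjusted p = 0.0328). Tnnc2 on the opposite strand overlaps 22.8% of the Ube2c exons and had a mean FPKM of 0.012.

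The checkpoint kinase-like gene Bub1b was at 11.1, 3.17 and 3.32 in control and 8.48, 1.60 and 1.53 with GSK4112 (adjusted p = 0.0374 with the block). Bub1 (0.0719) and Ttk, the gene of the MPS1 kinase (0.215), were lower in each replicate number without passing. Mad2l1, whose product MAD2 inhibits CDC20, was at 6.45, 2.09 and 2.25 and at 6.03, 2.06 and 2.17. Its values with GSK4112 were 93.5%, 98.4% and 96.6% of control (log2 change -0.04 ± 0.0992, adjusted p = 0.815). Mad2l1 was thus 2.97-fold and 2.85-fold higher in replicate 1 than in the other libraries of its group, while differing little between the groups.

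Of the 6 kinesin genes, which encode motors of the spindle, 1 fell with the block and 5 did not pass. Kif11 encodes Eg5, the motor that separates the spindle poles (chromosome 19, 37376403 to 37421859, plus strand). It was at 12.3, 3.33 and 3.31 in control and 9.23, 1.78 and 1.52 with GSK4112 (-0.60 ± 0.113, adjusted p = 0.0353). Kif20a, a motor of cytokinesis, was at 12.96, 3.27 and 2.72 and at 11.3, 2.16 and 1.64 (0.0911), and 29.3% of its exons overlap Cdc23 on the opposite strand (mean FPKM 6.96). Kif2c, a microtubule depolymerase gene, was at 8.44, 1.67 and 1.93 and at 6.30, 1.01 and 0.989 (0.0637). Kif4 and Kif23 were lower in each replicate number (0.118 and 0.162), and 15.1% of the Kif4 exons overlap Pdzd11 on the opposite strand. Pdzd11 had a mean FPKM of 14.2 against 2.30 for Kif4, so the Kif4 values are uncertain where strand is not known. Kif20b was nearly level in replicates 1 and 2 (97.5% and 99.9% of control) and at 60.3% in replicate 3 (0.509). The 6 kinesins summed to 48.9, 12.2 and 12.2 in control and 39.3, 8.12 and 6.57 with GSK4112.

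Among the 6 centromere and kinetochore genes, 1 fell with the block and 5 did not pass. Spc25, a subunit of the NDC80 complex that binds microtubules (chromosome 2, 69193895 to 69206194, minus strand), was at 8.15, 1.89 and 2.04 in control and 5.92, 0.758 and 1.14 with GSK4112 (-0.54 ± 0.116, adjusted p = 0.047). Ndc80, its partner, was at 8.53, 3.19 and 2.65 and at 7.36, 1.73 and 1.1 (0.077). Nuf2 was at 3.71, 0.841 and 1.05 and at 2.99, 0.381 and 0.308 (0.125), which gave it the lowest percentage of control in replicate 3 (29.3%). That value rested on 34 fragments (exact 95% Poisson interval 23.5 to 47.5) against 111 in control (91.3 to 133.7), where the interval covers counting error only. Cenpa, the centromeric histone gene, was at 7.93, 1.98 and 2.16 and at 5.87, 1.60 and 1.63 (0.16). Cenpe, a kinetochore motor gene, had an adjusted p of 0.199. Cenpf was the least abundant of the 38, at 2.95, 0.612 and 0.748 and at 2.64, 0.442 and 0.436 (0.420).

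Of the 5 genes of spindle assembly and cytokinesis, Tpx2 fell with the block and 4 did not pass. Tpx2, which activates Aurora A on the spindle (chromosome 2, 152847964 to 152895321, plus strand), was at 20.1, 4.79 and 4.15 in control and 16.4, 2.56 and 2.58 with GSK4112 (-0.50 ± 0.11, adjusted p = 0.0494). Anln, the gene of the cleavage furrow protein anillin, was at 11.7, 2.95 and 3.72 and at 9.97, 2.22 and 1.63 (0.118). Racgap1, a regulator of cytokinesis, was at 9.88, 2.25 and 2.98 and at 7.97, 1.80 and 1.95 (0.125). Prc1 (0.159) and Hmmr (0.277) were lower in each replicate number, and Hmmr was at 90.1% and 91.5% of control in replicates 1 and 2 but at 44.6% in replicate 3.

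Top2a and Mki67, which act on mitotic chromosomes, gave the lowest sums relative to control of the 7 functional groups in replicates 2 and 3. Top2a, DNA topoisomerase II alpha (chromosome 11, 98992943 to 99024189, minus strand), was at 22.9, 5.76 and 6.88 in control and 16.9, 3.13 and 2.62 with GSK4112. It fell with the block (-0.75 ± 0.142, adjusted p = 0.0356). Mki67, which encodes the proliferation antigen Ki-67, was at 14.6, 3.40 and 4.23 and at 12.7, 1.95 and 1.69 (adjusted p = 0.0782 with the block and 0.736 without). Their sum with GSK4112 was 79.0%, 55.5% and 38.8% of control in replicates 1, 2 and 3. For the passenger complex the percentages were 82.0%, 84.0% and 69.6%, for the entry regulators 74.0%, 63.3% and 48.4%, and for checkpoint and APC/C genes 70.9%, 66.5% and 61.0%. For the kinesins they were 80.2%, 66.5% and 53.9%, for the kinetochore 80.6%, 60.003% and 52.0%, and for spindle and cytokinesis genes 84.1%, 69.7% and 53.8%.

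Other cell cycle genes were examined in 9 further lists, of whose members 160 could be tested. None of the 160 was called without the block, where 1.03% of all genes were called in either direction. With the block 12 fell and 2 rose, where 6.89% of all genes were called. Without both replicate 3 libraries that fit called 0 of the 160, and without both replicate 2 libraries 7. Over all 12181 genes tested these fits called 0 and 614. DNA replication genes made up 6 of the 12 falls among 31 tested (19.4%, against 3.82% of all genes called lower), with a median log2 change of -0.29. Mcm6 and Mcm3, subunits of the replicative helicase, were at 14.7 ± 7.90 and 13.6 ± 8.40 FPKM in control (mean ± SD, n = 3). They were at 9.02 ± 5.27 and 9.0 ± 6.28 with GSK4112 (adjusted p = 0.0107 and 0.0181 with the block, 0.490 and 0.605 without). Rrm2, the ribonucleotide reductase subunit of S phase, was at 49.5, 11.8 and 11.5 in control and 35.5, 5.60 and 6.31 with GSK4112 (0.0199 and 0.689). Pcna (33.5 ± 11.9 and 35.2 ± 11.3) and Gins4 (20.8 ± 2.44 and 21.2 ± 0.734) were the most abundant of that list.

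In each of 5 further lists of mitosis genes, 1 gene fell with the block. That is 4.55% to 10.0% of the genes tested in a list, near the 3.82% of all genes called lower, so these counts of calls say nothing particular. In the order below, 14 of 22, 7 of 13, 14 of 22, 9 of 13 and 5 of 10 were lower in all 3 replicate numbers (18.6% of all genes). Replicate 1 was highest in both groups in 20, 13, 19, 13 and 9 of them (28.0% of all genes). Cenpm, of the inner kinetochore, was at 42.05, 12.4 and 9.41 in control and 9.41, 4.37 and 4.65 with GSK4112, a log2 change of -1.42 ± 0.207 (adjusted p = 0.0174 with the block and 0.262 without). It was the only fall among 22 other centromere and kinetochore genes tested, whose median was -0.16. Pttg1, the securin gene (6.58 ± 4.48 and 4.44 ± 3.05, adjusted p = 0.048), was the fall among 13 other checkpoint and cohesion genes (median -0.22). Haus4, of the augmin complex (10.8 ± 3.17 and 7.86 ± 2.65, 0.0401), was that among 22 other kinesin, spindle and cytokinesis genes (-0.25). Pbk, a mitotic kinase gene (9.64 ± 8.91 and 6.59 ± 7.61, 0.0426), was that among 13 other entry regulators (-0.24). Hmgb2, a chromatin protein gene (14.8 ± 7.85 and 10.5 ± 5.90, 0.0309), was that among 10 genes of condensin and chromatin (-0.15). Of the 5, Cenpm had a ratio of replicate 1 to the others that was larger in control than in GSK4112, where its value equalled that of control replicate 3. The most abundant members of these lists were Zwint (35.6 ± 2.43 and 30.6 ± 4.52) with Cenpm, Bub3 (13.5 ± 1.97 and 11.9 ± 0.946) and Mad2l1bp (10.1 ± 1.74 and 10.3 ± 1.13). In the remaining 3 they were Numa1 (43.2 ± 4.05 and 51.5 ± 5.02) and Haus7 (16.3 ± 0.854 and 17.8 ± 2.38), Cks1b (33.7 ± 17.6 and 25.1 ± 10.6) and Cks2 (27.3 ± 12.7 and 23.1 ± 12.3), and H2afz (139.8 ± 35.1 and 132 ± 14.4) and Ncaph2 (24.98 ± 4.4 and 23.7 ± 0.773).

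The core of the APC/C and the factors that read mitotic promoters had medians near 0. Of 17 genes of the APC/C core and its partners, 1 (5.88%) rose with the block, near the 3.07% of all genes called higher, and the median log2 change was 0.07. Anapc15, a subunit that aids turnover of the checkpoint complex, rose from 3.105 ± 0.681 to 5.145 ± 0.531 (adjusted p = 0.0451 with the block and 0.126 without). Anapc5 (50.96 ± 3.53 and 63.55 ± 2.45) and Anapc2 (49.15 ± 1.53 and 52.98 ± 2.88) were the most abundant. Summed over this list, replicate 1 was at 1.09 times the other libraries in control and 1.02 times in GSK4112. Of 20 DREAM, MuvB, E2F and NF-Y genes tested none was called in either fit (median 0.01), with Rbbp4 at 28.35 ± 1.68 and 28.6 ± 0.691 and Tfdp1 at 29.3 ± 7.33 and 26.6 ± 6.18.

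Of 12 genes for G1 cyclins, their kinases and CDK inhibitors tested, 1 rose and 1 fell with the block (8.33% each, against 3.07% and 3.82% of all genes; median -0.02). Cdkn1b, which encodes the CDK inhibitor p27, was at 40.2, 138.2 and 128.7 FPKM in control and 73.3, 195.7 and 170.8 with GSK4112. It rose with the block (0.59 ± 0.116, adjusted p = 0.0397, and 0.636 without). Its values were lowest in the replicate 1 libraries of both groups and higher with GSK4112 in each replicate number, the reverse of the order of the mitosis genes. Ccne2, the cyclin E2 gene, fell (3.31 ± 1.49 and 2.06 ± 1.41, adjusted p = 0.0496 with the block). Cdk4 was at 121.8 ± 12.2 and 122.1 ± 9.44.

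Several marker lists also moved with the replicate 1 libraries, with GSK4112 or with both, and their part in the values of the mitosis genes was not tested. The 11 theca, stroma and smooth muscle markers summed to 246 in control replicate 1 and 134 in GSK4112 replicate 1, against 50.001 to 84.5 in the other libraries, and most of each sum was Acta2 (234 and 125 in replicate 1, 44.5 to 76.9 in the rest). Within replicate numbers 1, 2 and 3 that sum with GSK4112 was 54.5%, 143.7% and 159.3% of control. The theca markers Cyp17a1 (0 to 0.0555) and Insl3 (0 to 0.19) were at or near 0. The 8 immune markers had sums of 41.3 (control) and 38.2 (GSK4112) in replicate 1 and 7.24 to 19.2 elsewhere, mostly Lyz2, while Ptprc was at 0.0164 to 0.0678. With GSK4112 the immune sum was 92.6%, 124.4% and 264.9% of control. The 9 surface epithelium markers, mostly Krt8 and Krt18, summed to 123, 60.5 and 48.9 in control replicates 1, 2 and 3 and to 51.2, 32.0 and 29.5 with GSK4112, so that GSK4112 replicate 1 lay below control replicate 2. The GSK4112 sums were 41.5%, 52.9% and 60.3% of control. Of 7 markers tested Krt8 and Krt18 fell and Epcam rose with the block (adjusted p = 0.00379, 0.00183 and 0.021). These are 28.57% and 14.29% of the markers tested, against 3.82% and 3.07% of all genes. The 9 oocyte markers summed to 4.02 in control replicate 1, 1.14 in GSK4112 replicate 1, 1.83 in GSK4112 replicate 3 and 0.109 to 0.447 in the rest, with Bmp15 at 0 to 0.036. Endothelial markers (6, sums 0.546 to 1.02) and erythroid markers (2, 0.0246 to 0.377) were near 0 throughout. The 14 granulosa markers summed to 2637, 2914 and 2937 in control and to 1888, 2527 and 2696 with GSK4112, which was 71.6%, 86.7% and 91.8% of control. Inha was a large part of each sum. The median granulosa marker tested was at 67.5%, 80.5% and 76.2% of control in replicates 1, 2 and 3. Of 12 tested, Inhba, Inhbb, Hsd17b1, Fst and Serpine2 fell and Kitl rose with the block (41.67% and 8.33%, against 3.82% and 3.07% of all genes). Hsd17b1 and Fst also fell without the block (adjusted p = 0.0187 for each), where 0.624% of all genes were called lower.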

How the data were processed

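RNA was sequenced from 3 control and 3 GSK4112 samples, grouped and numbered by their titles. The deposited values, normalized by the authors, are FPKM per the file listing. The submitters' processing notes name GRCm38 as the build. The sources used here give no aligner, counter, annotation release or strand setting, so overlapping antisense genes cannot be told apart. Symbols, coordinates and exon lengths came from GENCODE M21, which held 27098 of 27151 IDs. FPKM times exon length gave library totals that turned 92.8 to 93.1% of the values under 500 fragments into whole numbers (tolerance 0.01), and 33 of the 38 members had whole fragments in every library.

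The 12181 genes that averaged 1 FPKM or more, all 38 members among them, entered a limma fit (version 3.58.1, R 4.3.3) of log2(FPKM + 1) with a variance trend; tests were 2-sided, at a Benjamini-Hochberg adjusted p under 0.05. That scale understates the change of low genes. A 3 against 3 exact permutation test cannot give a p below 0.1. Run without the block, it gave a 2-sided p of 0.3 for Cdk1, 0.6 for Mad2l1, 0.7 for Incenp and 0.5 for every other member. Same-numbered samples deviated together from their group means (correlations over genes of 0.665, 0.326 and 0.213, each over the limit of 0.1), so the replicate number was used as a block in a second fit. The pairing comes from the data, not from a label, and GSK4112 replicates 2 and 3 correlated better with the other number (0.530 and 0.357). Deviations cancel out within a group, so a replicate 1 outlier shared by both groups raises the correlations of numbers 2 and 3 in either pairing. The check therefore cannot tell whether 2 pairs with 2 and 3 with 3. A block with these numbers swapped was not fitted. Matching transcripts of other genes (at least 95% identity over 100 bases) were found with BLAST+ 2.17.0. Promoters are those of RefSeq (GRCm38.p6).

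The members and lists were chosen with earlier results of these data known. Values by library are printed for the 3 most abundant members of each functional group, members called with a mean FPKM of at least 10, the members of lowest level and some members chosen after their values were seen. From each other list came the 2 most abundant genes and up to 3 called rises and falls.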

Additional observations from a re-analysis of the deposited data

How the results depend on the processing

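Limma called 126 genes without a block. The count was 26 without a filter, 830 with sample weights and 839 with the replicate block. It was 788 with the replicate block and median-of-ratios scaling, 856 without both replicate 1 libraries and 1402 in limma-voom with the block. With the replicate block and both libraries of replicate 1, 2 or 3 left out it was 1139, 614 and 0. Leaving out 1 library in turn gave 0 to 153 calls. It gave 8 calls without control replicate 2 and 0 without control replicate 3, GSK4112 replicate 2 or GSK4112 replicate 3 (1843, 1224 and 1318 genes at an unadjusted p under 0.05). Calls split into 50 higher and 76 lower, but into 44 and 117 under median-of-ratios scaling; with the replicate block the splits were 374 and 465, and 231 and 557.

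Of the mitosis genes 0 were called in the fits of all 6 libraries without a block, also when any 1 library was left out. The count was 10 with the replicate block (465 of all 12181 genes called lower) and 12 with median-of-ratios scaling added (557). Without both replicate 1 libraries (no block) it was 11 (463), and in limma-voom with the block 15 (722 of 12170). It was 14 (634) and 5 (378) with the replicate block and both libraries of replicate 1 or 2 left out. Of the other cell cycle genes 0 were called in the fit of all 6 libraries without block or sample weights, and 2 with sample weights. With the replicate block 14 were called, and 17 with median-of-ratios scaling added. Without both replicate 1 libraries (no block) 11 were called, and 20 in limma-voom with the block. The count was 15 and 7 with the replicate block and both libraries of replicate 1 or 2 left out. The causes were not tested.

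The unblocked log2 change of 26 members turned above 0 in at least 1 of 6 fits that each left out 1 library, all 26 without control replicate 1. Without GSK4112 replicate 3, 8 of them also turned (Cdc25c, Nek2, Incenp, Mad2l1, Kif20a, Kif20b, Cenpf and Hmmr), and without GSK4112 replicate 2, 4 (Nek2, Incenp, Mad2l1 and Cenpf). The median over all 38 ran from -1.06 to 0.10. The ranges were: Ccnb2 (-1.19 to 0.08), Cdc25c (-0.83 to 0.25), Plk1 (-1.26 to 0.08), Aurka (-1.03 to 0.09), Nek2 (-0.81 to 0.21), Foxm1 (-1.05 to 0.11), Birc5 (-0.94 to 0.17), Incenp (-0.45 to 0.28), Cdca8 (-0.88 to 0.08), Mad2l1 (-0.44 to 0.37), Ttk (-0.74 to 0.09), Cdc20 (-1.26 to 0.06), Ube2c (-1.19 to 0.27), Kif20a (-1.07 to 0.23), Kif20b (-0.55 to 0.18), Kif23 (-0.81 to 0.16), Kif2c (-1.07 to 0.14), Kif4 (-0.91 to 0.19), Cenpa (-0.75 to 0.23), Cenpe (-0.87 to 0.12), Cenpf (-0.63 to 0.22), Tpx2 (-1.26 to 0.15), Prc1 (-0.91 to 0.10), Anln (-1.09 to 0.07), Racgap1 (-0.86 to 0.22) and Hmmr (-0.95 to 0.30). No member turned in any other alternative run.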
